A study of Mus musculus with 6 samples.

Results

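The 2'-5' oligoadenylate synthetase (OAS) family was followed through 6 genes, Oas1a, Oas1g, Oas2, Oas3, Oasl1 and Oasl2, which were chosen by symbol. All 6 were found among the 24054 genes of the deposited tables, and all 6 passed the filter on low counts that left 11400 genes for testing. The samples were bone marrow-derived macrophages of C57BL/6 wild-type mice, grown for 7 days in L929-conditioned medium. The oxLDL group received oxidised low-density lipoprotein, the altered cholesterol carrier that turns macrophages into foam cells, at 50 µg/ml for 24 hours, and the untreated group was kept for the same time without it. Each group held 3 samples numbered 1 to 3, whose titles carry the word mix without explaining it. Age, sex and the number of mice behind a sample were not given in the sources used here.

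OAS enzymes bind double-stranded RNA and join ATP into short chains linked from the 2' to the 5' carbon, known as 2-5A. These chains act as a second messenger of antiviral defence. The genes are transcribed in response to interferon, so their mRNA levels in macrophages are widely read as a sign of interferon signalling.

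All 6 OAS transcripts were lower with oxLDL in each of the 3 numbered pairs, and in none of the 6 did the groups overlap. By edgeR's quasi-likelihood test with the sample number as a block, called the matched fit here, 4 of the 6 fell at a Benjamini-Hochberg adjusted p below 0.05: Oas1a, Oas1g, Oas3 and Oasl1. Oas2 and Oasl2 did not pass. Over all genes tested, 3.98% fell and 1.91% rose in this fit (5.89% in either direction), 10.6% had all oxLDL samples below all untreated samples, and 27% were lower in all 3 pairs. The median log2 fold change of the 6 genes was -2.66, against 0.012 over all genes tested. The words fell and rose refer to the matched fit throughout. In the fit without the block 0 of 11400 genes passed (smallest adjusted p = 0.0667), so 0 of the 6 did, although all 6 were lower at an unadjusted p under 0.05, as were 8.39% of all genes tested. These are bulk samples, in which fewer cells expressing a gene and less RNA per cell cannot be told apart.

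The call of the 4 genes depended on the pairs. Without pair 1 or without pair 2, 0 of the 6 passed in the matched fit, as did 0 genes in all. Without pair 3 all 6 passed, where 15.8% of all genes tested were called lower. The libraries numbered 3 stood apart: untreated sample 3 correlated with the other untreated samples at r = 0.889 and 0.897 across genes in log2 CPM, against 0.984 between those 2, and oxLDL sample 3 at 0.908 and 0.922 against 0.983. Xist, which is transcribed from the inactive X chromosome, was 0.341 and 0.0724 CPM in these 2 libraries and 346 to 966 CPM in the other 4. The Y-linked gene Ddx3y was 30.8 and 28.7 CPM in number 1 and 90.9 to 114 CPM in numbers 2 and 3. Numbers 1 and 2 thus held both Xist and Y-linked RNA, and number 3 held Y-linked RNA nearly without Xist. What sets pair 3 apart and this difference in sex-linked RNA cannot be told apart.

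**Figure D1:**
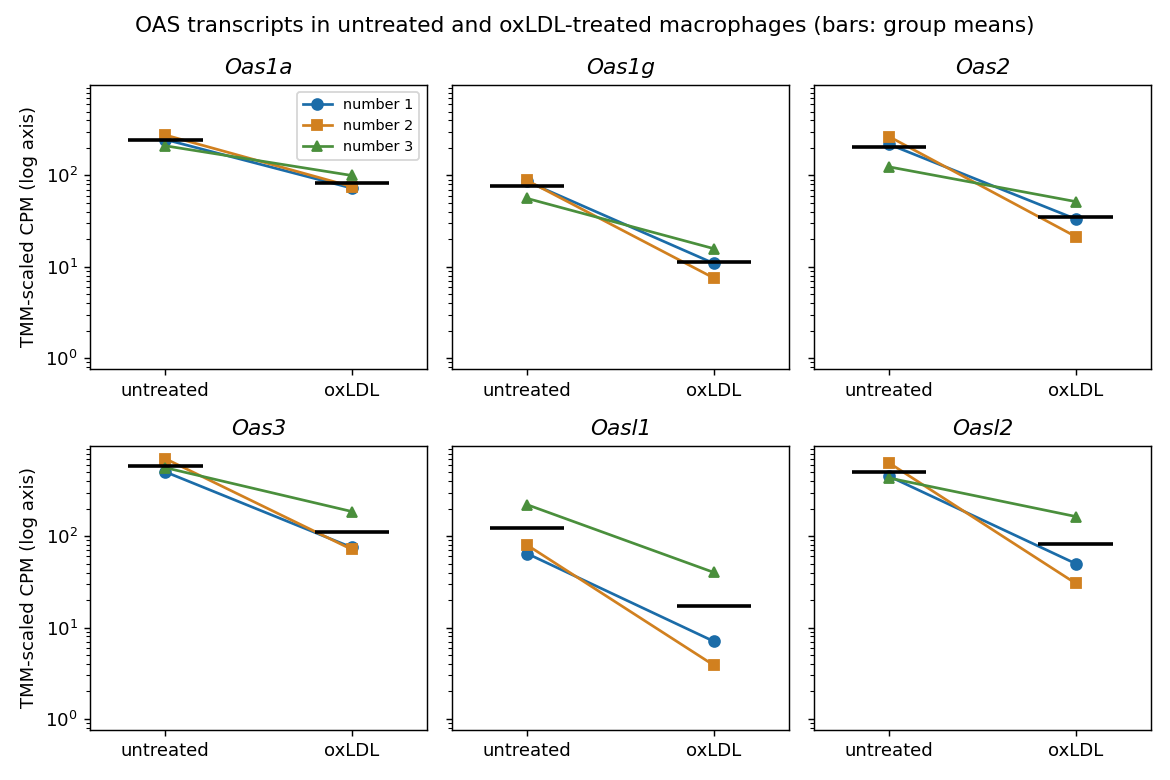
Levels of the 6 OAS genes in CPM, read counts scaled to the TMM-adjusted library total, on a log axis in untreated and oxLDL samples; lines join samples of the same number and black bars are group means of 3 samples. Every line runs downward, from 506, 706 and 562 CPM to 75.2, 71.5 and 186 CPM in Oas3, and the line of number 3 is the flattest in each panel.

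Oas1a and Oas1g encode the short form of the enzyme, with a single synthetase unit, and lie next to each other in the OAS cluster of chromosome 5. Without oxLDL the level of Oas1a was 247, 277 and 211 CPM in samples 1, 2 and 3, and with oxLDL it was 72.5, 75.4 and 99.8 CPM. The 3 oxLDL samples lay close together, and each was below the lowest untreated sample. Oas1a fell by 1.58 on the log2 scale, with a standard error (SE) of 0.20 (edgeR adjusted p = 0.0317 matched, 0.0718 unmatched). This was the smallest change of the 6 genes in the matched fit.

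Oas1g measured 85.8, 88.0 and 56.0 CPM in the untreated samples and 10.9, 7.54 and 15.8 CPM with oxLDL. Sample 3 was the lowest of its group without oxLDL and the highest with it. Oas1g changed by -2.77 ± 0.37 (log2, SE; edgeR adjusted p = 0.0362 matched, 0.0718 unmatched). The log2 ratio of Oas1a was above that of Oas1g in all 3 pairs, by 1.19, 1.64 and 0.73 (mean 1.19 ± 0.46, SD, n = 3). An exact two-sided sign-flip test over these 3 pairs gave p = 0.25, the smallest value that 3 pairs allow.

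These 2 genes share sequence, which bears on how their reads were divided. In the longest protein-coding transcripts of GENCODE M21, their coding sequences of 1104 bases were 96.7% identical. Of all stretches of 150 bases, the labelled read length, 32.4% of the Oas1a transcript and 30.1% of the Oas1g transcript occurred unchanged in the other gene, and 0 stretches of Oas2, Oas3, Oasl1 or Oasl2 occurred in a transcript of any other gene. The longest run that both coding sequences have in common covers 231 bases, from base 222 in each. A single read inside it cannot be assigned to either gene by its letters. The reads were paired, and a mate can lie outside the run, so these shares hold for single reads and not for pairs. The run is shown whole:
Oas1a and Oas1g: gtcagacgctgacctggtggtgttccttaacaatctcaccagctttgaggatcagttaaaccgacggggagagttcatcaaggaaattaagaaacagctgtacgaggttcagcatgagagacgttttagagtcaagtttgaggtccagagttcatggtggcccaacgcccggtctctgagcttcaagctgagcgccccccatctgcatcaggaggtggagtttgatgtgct

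The expected counts of Oas1a and Oas1g were not whole in any of the 6 samples, the mark of divided reads in RSEM output, and their separate levels are uncertain for that reason. Counts of Oas3 were also not whole in 6 samples, while those of Oas2, Oasl1 and Oasl2 were whole. Summed into a single row, Oas1a and Oas1g measured 333, 365 and 267 CPM untreated and 83.3, 82.9 and 116 CPM with oxLDL. The sum changed by -1.78 on the log2 scale in the matched fit and passed (edgeR adjusted p = 0.0325).

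Oas2 and Oas3 encode longer forms that are built from repeated synthetase units. Oas3 had the highest mean CPM of the 6 in both groups, although in oxLDL sample 2 it was below Oas1a, with 506, 706 and 562 CPM untreated and 75.2, 71.5 and 186 CPM with oxLDL. The oxLDL samples 1 and 2 were nearly equal, and sample 3 was more than double either of them while still below every untreated sample. Oas3 changed by -2.55 ± 0.38 (log2, SE; edgeR adjusted p = 0.0396 matched, 0.103 unmatched).

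Oas2 measured 219, 266 and 124 CPM untreated and 33.3, 21.4 and 51.7 CPM with oxLDL. The groups did not overlap, but sample 3 was the lowest untreated and the highest oxLDL sample, so the log2 ratios of the pairs spread from -3.63 to -1.26. The change of -2.54 ± 0.50 did not pass (log2, SE; edgeR adjusted p = 0.0595 matched, 0.0960 unmatched). DESeq2 and limma-voom with the same block called Oas2 and Oasl2 lower as well. These fits called more genes lower in all, 1158 and 646, against 454 in edgeR. The DESeq2 number comes from a wider set of genes, under its own filter.

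Oasl1 and Oasl2 encode OAS-like proteins that carry ubiquitin-like domains at the C-terminal end. In mice, OASL1 has lost the synthetase activity and is known to hold back translation of the Irf7 mRNA, whereas OASL2 has kept it. Oasl1 measured 64.5, 79.9 and 221 CPM untreated and 7.06, 3.87 and 40.1 CPM with oxLDL. Sample 3 was the highest of both groups, a pattern that Oasl1 alone showed among the 6. Oasl1 changed by -3.28 ± 0.40 in the matched fit (log2, SE; edgeR adjusted p = 0.0316), the largest change of the 6. Without the block its change was -2.84 ± 1.02 (edgeR adjusted p = 0.285), the largest adjusted p of the 6.

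Oasl2 measured 452, 633 and 433 CPM untreated and 50.0, 30.4 and 164 CPM with oxLDL. Sample 3 retained more of the transcript than samples 1 and 2 did, and the groups were still apart. Its log2 ratios of -3.17, -4.37 and -1.40 in pairs 1, 2 and 3 had the widest spread of the 6, and the change of -2.99 ± 0.65 did not pass (log2, SE; edgeR adjusted p = 0.0689 matched, 0.179 unmatched).

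**Figure D2:**
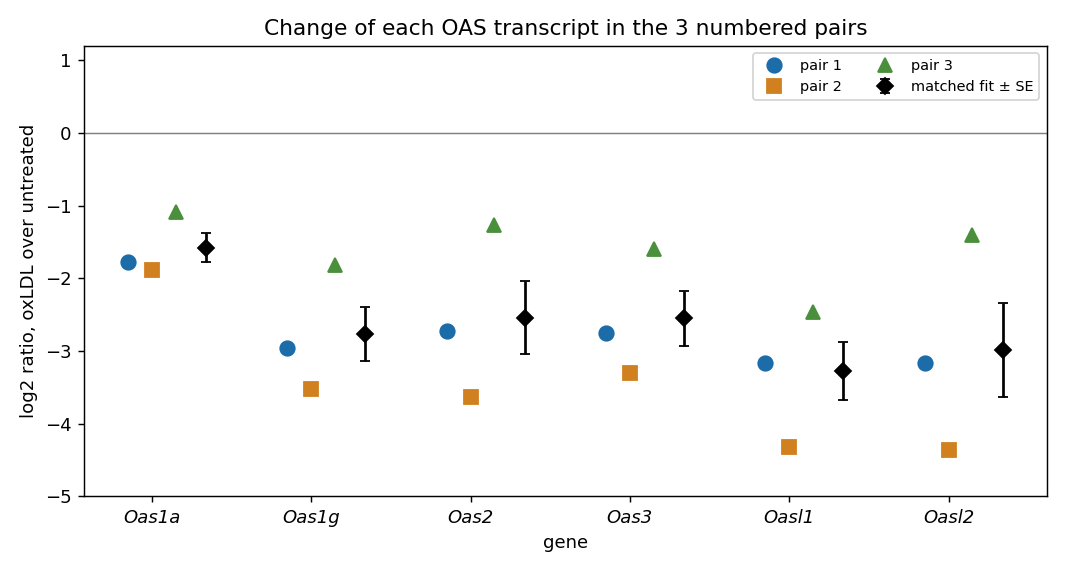
Log2 ratio of oxLDL over untreated for each OAS gene in pairs 1, 2 and 3 (circles, squares, triangles) and the log2 fold change of the matched fit with its standard error (diamonds). All 18 ratios lie below 0, and in every gene pair 2 has the most negative and pair 3 the least negative ratio.

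The pairs stood in the same order in all 6 genes. Pair 2 had the most negative log2 ratio and pair 3 the least negative in each, with medians over the 6 genes of -2.86, -3.58 and -1.50 in pairs 1, 2 and 3. The medians over all genes tested were 0.012, 0.014 and -0.015. The summed level of the 6 genes went from 1575, 2050 and 1608 CPM untreated to 248.9, 210.2 and 558 CPM with oxLDL, which left 15.8%, 10.3% and 34.7% of the untreated sum in pairs 1, 2 and 3. Each pair held 1 library per group, so a difference in response between pairs was not tested.

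To compare genes with each other, levels were divided by the length of the longest protein-coding transcript in GENCODE M21, from 1885 bases in Oas1a to 4720 in Oas3. In untreated cells Oasl2 stood first at 162 ± 35.3 CPM per kb (SD, n = 3), followed by Oas1a at 130 ± 17.5 and Oas3 at 125 ± 21.8 CPM per kb. Oasl1 (55.8 ± 39.5), Oas2 (51.3 ± 18.4) and Oas1g (38.7 ± 9.05 CPM per kb) came after them. Neighbours in this order overlapped in their sample ranges except Oas3 and Oasl1, of which the lowest Oas3 sample had 107 CPM per kb, more than any Oasl1 sample.

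With oxLDL the order changed at the top. Oas1a led at 43.8 ± 7.97 CPM per kb (SD, n = 3), ahead of Oasl2 at 26.1 ± 23.1 and Oas3 at 23.5 ± 13.8, and Oas2 (8.96 ± 3.86), Oasl1 (7.80 ± 9.19) and Oas1g (5.78 ± 2.11 CPM per kb) followed. Here Oas3 and Oas2 were the only neighbours without overlap. The share of Oas1a in the summed level per kb of the 6 genes was 25.6%, 22.7% and 21.1% in untreated samples and 43.9%, 52.7% and 28.7% with oxLDL. Because reads of Oas1a and Oas1g were divided between them, their shares were also added, to 34.1%, 29.6% and 26.4% untreated and 50.2%, 57.7% and 33.1% with oxLDL, and the added share of oxLDL sample 3 lay inside the untreated range. The share of Oasl2 was 28.3%, 31.3% and 26.1% untreated and 18.3%, 12.8% and 28.5% with oxLDL, so that oxLDL sample 3 lay inside the untreated range.

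**Figure D3:**
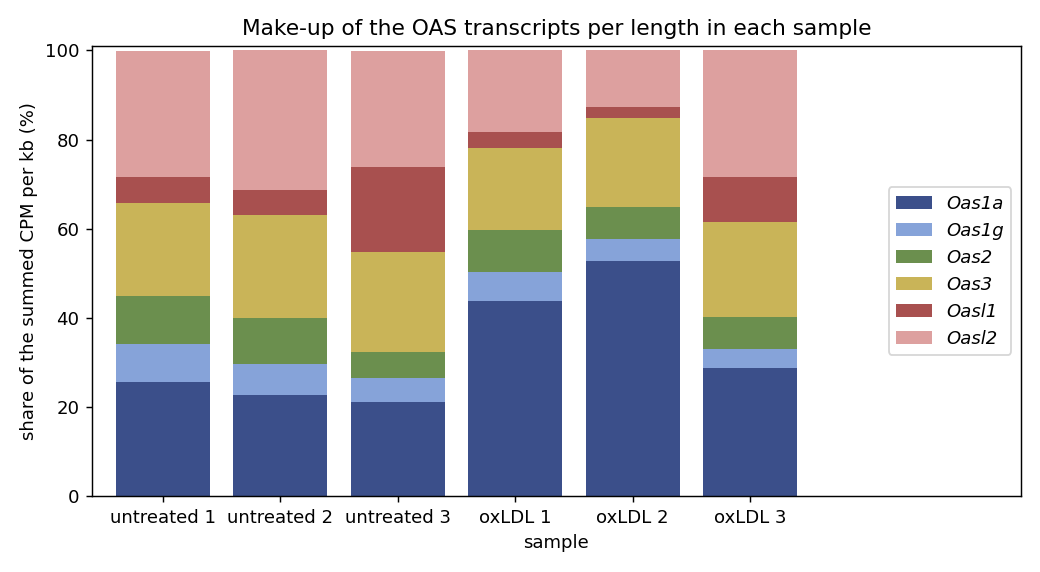
Share of each OAS gene in the summed CPM per kb of the 6 genes, in percent, for each of the 6 samples. Oas1a makes up 21.1% to 25.6% in untreated samples and 28.7% to 52.7% with oxLDL, a split from Oas1g that is uncertain, and oxLDL sample 3 is the closest of its group to the untreated make-up.

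The family sits in 2 places on mouse chromosome 5 in the RefSeq annotation of GRCm38.p6. Oasl2 and Oasl1 neighbour each other, and Oas2, Oas3, Oas1e, Oas1c, Oas1b, Oas1f, Oas1h, Oas1g, Oas1a and Oas1d follow each other in a second cluster. Of the 6 family rows that are not among the chosen genes, 2 passed the filter. Oas1c fell from 11.6 ± 1.26 to 5.01 ± 0.329 CPM (SD, n = 3), a change of -1.20 ± 0.17 (log2, SE; edgeR adjusted p = 0.0369). Oas1b, annotated as a transcribed pseudogene, measured 9.49, 12.7 and 10.7 CPM untreated and 3.30, 1.13 and 3.18 CPM with oxLDL, with counts not whole in 4 samples, and its change of -2.17 ± 0.43 did not pass (edgeR adjusted p = 0.0601). Oas1d, Oas1e, Oas1f and Oas1h had at most 9 reads in a sample.

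The nearest protein-coding genes of other families were looked up on both sides of each cluster, a choice made after the values of the OAS genes were known. Of these 8 genes 3 passed the filter, and 0 of the 3 passed the matched fit, where 5.89% of all genes tested did. Ptpn11, which encodes the phosphatase SHP2 and lies beyond the Oas1 end of the large cluster, measured 144, 122 and 105 CPM untreated and 116, 109 and 130 CPM with oxLDL, a change of -0.06 ± 0.16 (log2, SE). The neighbours of the Oasl genes, 2610524H06Rik and 2210016L21Rik, had positive values of 0.43 ± 0.25 and 0.42 ± 0.12. Without pair 3, 2 of 4 tested neighbours rose, where 14% of all genes tested did.

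Promoter windows from 250 before to 50 after the RefSeq start in GRCm38.p6, were found for 5 of the 6 genes, all but Oas2. The letters GAAA, followed after any 2 bases by GAAA again, the core of the interferon-stimulated response element (ISRE), were searched on both strands. They occurred in 3.44% of 32851 windows of this length. Oas1a held 2 overlapping matches, at 20 and 14 bases before the start, Oas1g 2 overlapping matches at 18 and 12 bases before it, and Oas3 held 1 match at 75 bases before it. Oasl1 and Oasl2 had no match in this window. The letters TTCNNNGAA, a gamma-activated site, occurred in 8.3% of all windows and in that of Oas1a, without overlap with either ISRE match. The letters GGGA, then any 4 bases, then CC, a form of the NF-kappaB site, occurred in 20.7% of all windows and in that of Oasl1.

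The windows with an ISRE match are shown, with the matching bases in capitals. Their genes fell, but so did Oasl1 (-3.28 on the log2 scale), whose window had no such match. A part of the ISRE in these changes was not tested. Oas1a lies at chr5:120907476-120907775, Oas1g at chr5:120887564-120887863 and Oas3 at chr5:120777610-120777909, all on the minus strand of GRCm38.p6, and the sequences come from RefSeq.
Oas1a: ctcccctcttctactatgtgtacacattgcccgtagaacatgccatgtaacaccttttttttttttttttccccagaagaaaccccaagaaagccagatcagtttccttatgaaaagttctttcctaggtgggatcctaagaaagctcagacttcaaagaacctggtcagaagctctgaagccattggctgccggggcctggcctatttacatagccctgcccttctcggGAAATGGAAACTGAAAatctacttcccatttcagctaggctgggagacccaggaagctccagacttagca
Oas1g: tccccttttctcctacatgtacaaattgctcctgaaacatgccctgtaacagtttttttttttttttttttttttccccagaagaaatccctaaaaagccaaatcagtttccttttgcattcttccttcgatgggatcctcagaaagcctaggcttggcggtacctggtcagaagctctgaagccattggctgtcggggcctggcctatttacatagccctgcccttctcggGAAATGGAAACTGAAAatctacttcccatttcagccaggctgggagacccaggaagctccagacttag
Oas3: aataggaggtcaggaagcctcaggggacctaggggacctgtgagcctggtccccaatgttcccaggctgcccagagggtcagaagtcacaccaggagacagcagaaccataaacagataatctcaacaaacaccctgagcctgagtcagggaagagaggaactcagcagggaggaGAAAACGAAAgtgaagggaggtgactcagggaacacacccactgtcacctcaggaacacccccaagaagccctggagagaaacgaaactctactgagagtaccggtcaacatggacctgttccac

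The windows of Oas1a and Oas1g were 85.3% identical over an alignment of 306 positions. Their longest shared run of 73 bases contained both overlapping matches in each gene.

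Of the 6 listed genes of 2-5A handling, 1 fell, 0 rose and 5 did not pass, with a median log2 fold change of 0.08. Over all genes tested, 3.98% fell. Cnp, a cyclic nucleotide phosphodiesterase of the same superfamily as 2-5A-cutting enzymes, fell from 45.3 ± 16.4 to 19.4 ± 5.79 CPM (SD, n = 3), a change of -1.20 ± 0.13 (log2, SE; edgeR adjusted p = 0.0286). Abce1, an ATPase of ribosome recycling, measured 126 ± 24.9 and 143 ± 4.17 CPM. Pde12, a mitochondrial phosphodiesterase that degrades 2-5A, measured 23.8 ± 1.47 and 23.5 ± 5.07 CPM. Enpp1, an ectoenzyme that can cut 2-5A, measured 12.0 ± 3.03 and 7.83 ± 2.28 CPM, and its log2 ratios were -0.56, -0.63 and -0.66 in pairs 1, 2 and 3. It did not reach the threshold (edgeR adjusted p = 0.0733).

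The interferon input to the OAS genes was listed as 18 genes of the ligands, receptor, kinases and transcription factors, of which 14 passed the filter. In the matched fit 3 fell, 0 rose and 11 did not pass, all 14 had a negative value, and the median was -0.97. Over all genes tested, 3.98% fell in this fit. Without pair 3, 10 of the 14 fell, where 15.8% of all genes tested did. Without pair 1 or pair 2, 0 did, as did 0 genes in all. In the fit without the block 0 genes of this or any other list described here passed. Stat2, a transcription factor of interferon signalling, fell from 433 ± 80.6 to 85.7 ± 42.6 CPM (SD, n = 3), a change of -2.43 ± 0.39 (log2, SE; edgeR adjusted p = 0.0442). Usp18, which restrains the interferon receptor, fell by 2.60 on the log2 scale (SE 0.27; edgeR adjusted p = 0.0286), and the transcription factor Irf5 fell by 1.09 (SE 0.16; edgeR adjusted p = 0.0369), although its untreated and oxLDL samples overlapped.

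Irf7, the factor whose mRNA OASL1 acts on, measured 478, 609 and 1110 CPM untreated and 35.5, 14.1 and 311 CPM with oxLDL. As with Oasl1, sample 3 was the highest of both groups. This also held for further genes of the same list, Usp18, Ifnar1 and Jak1 among them. The change of Irf7 was -3.66 ± 0.80 and did not pass (log2, SE; edgeR adjusted p = 0.0698).

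The receptor and kinase transcripts named by the same rule had smaller values. Ifnar1, a chain of the receptor for type I interferon, measured 222 ± 43.0 and 161 ± 18.4 CPM, a change of -0.45 ± 0.13 that did not pass (log2, SE; edgeR adjusted p = 0.0978). The kinase Jak1 measured 481 ± 135 and 455 ± 113 CPM, a change of -0.07 ± 0.14. The 4 listed interferon genes did not reach the filter and are named because of that. Ifnb1 had 0, 1 and 4 reads in untreated samples 1, 2 and 3 and 0 in each oxLDL sample. Ifna1, Ifna2 and Ifna4 had 0 reads in all 6 samples, which allows a level of up to 0.217 CPM in a sample (3 counts, for counting error only).

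Other sensors of double-stranded RNA were lower together with the OAS genes. Of 8 tested genes 5 fell, 0 rose and 3 did not pass, all 8 had a negative value, and the median log2 fold change was -1.67. Over all genes tested, 3.98% fell. Without pair 3 all 8 fell, where 15.8% of all genes tested did. Without pair 1 or pair 2, 0 did, as did 0 genes in all. Dhx58, the regulator LGP2, fell from 104 ± 24.8 to 13.1 ± 3.44 CPM (SD, n = 3), a change of -2.99 ± 0.32 (log2, SE; edgeR adjusted p = 0.0286). Ddx58, which encodes the sensor RIG-I, fell from 372 ± 114 to 65.4 ± 13.8 CPM. Eif2ak2, the kinase PKR, fell by 1.64 (SE 0.28; edgeR adjusted p = 0.0495), the editing enzyme gene Adar by 1.35 (SE 0.22; edgeR adjusted p = 0.0452), and the endosomal receptor gene Tlr3 by 1.21 on the log2 scale (SE 0.21; edgeR adjusted p = 0.0463). Counts of Eif2ak2 were not whole in 6 samples. Ifih1, the sensor MDA5 (-1.70 ± 0.32), Zbp1, a sensor of Z-form nucleic acid (-3.85 ± 0.82), and the adaptor Mavs (-0.38 ± 0.10) did not pass.

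The cGAS-STING genes were listed because cGAS has the same fold as OAS and makes a cyclic dinucleotide that also has a 2' to 5' link. Of 3 tested genes 0 passed, where 5.89% of all genes tested did, and the median log2 fold change was -0.22. Mb21d1, which encodes cGAS, measured 13.9, 18.0 and 19.4 CPM untreated and 12.0, 10.7 and 23.7 CPM with oxLDL. Tmem173, which encodes STING, had a change of -0.35 ± 0.13, and the kinase gene Tbk1 -0.22 ± 0.11 (log2, SE).

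**Figure D4:**
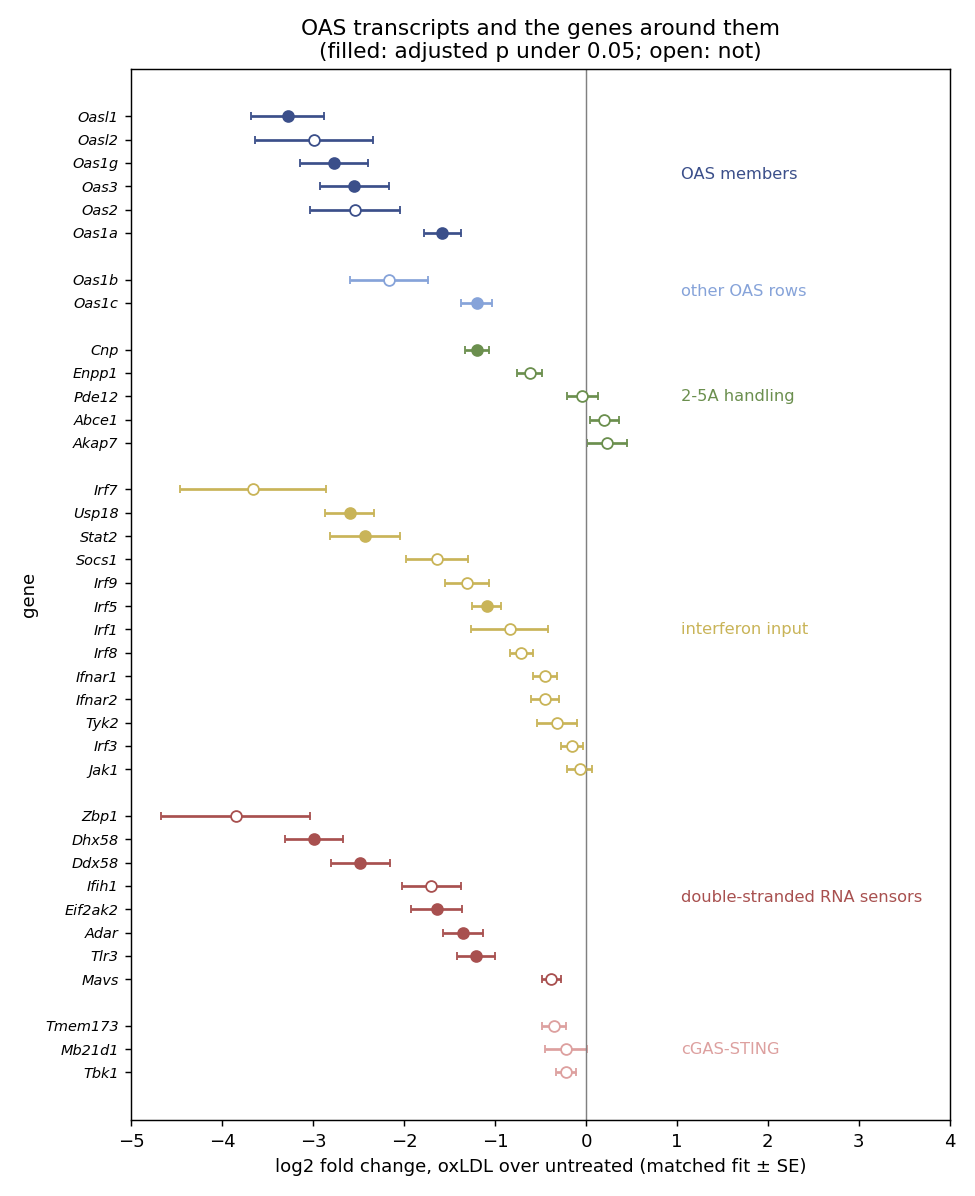
Log2 fold change of oxLDL over untreated in the matched fit, with its standard error, for the tested OAS genes and the listed and reported genes of 2-5A handling, interferon input, double-stranded RNA sensing and cGAS-STING; filled points passed an adjusted p of 0.05. The OAS genes lie between -3.28 and -1.20, while Abce1 and Akap7 lie to the right of 0.

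By the smallest Euclidean distance between centred log2 CPM values over the 6 samples, the genes most like the mean profile of the 6 OAS genes were Pilrb1 (distance 0.347), Stat2 (0.361), Gm8369 (0.439) and Trex1 (0.470). Each OAS gene is itself part of this mean profile, which draws its own distance down, so these distances are description only. Oas3 lay at 0.32, Oas1g at 0.71, Oasl2 at 0.75, Oas2 at 0.81, Oas1a at 1.56 and Oasl1 at 2.07. Against the genes outside the 6 these distances ranked 1, 11, 11, 12, 107 and 236, in the same order. Pilrb1, a paired immunoglobulin-like receptor, went from 11.9 ± 0.538 to 2.22 ± 1.59 CPM (SD, n = 3), with counts not whole in 4 samples. Gm8369 had 16.01, 21.01 and 15.03 counts in untreated samples 1, 2 and 3 and 0, 0 and 3.01 with oxLDL. At such counts its distance depends on the prior count of 2 added before the log2 step. Trex1, a nuclease that degrades cytosolic DNA, went from 91.8 ± 13.2 to 16.4 ± 8.55 CPM.

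The labelled cell type was checked against its markers. Of 11 macrophage symbols 10 were in the tables, and the missing one, Adgre1, is another symbol of Emr1. Of these 10 genes 0 were at 0. Their summed level ran from 12900 to 36400 CPM in untreated samples and from 9340 to 16800 CPM with oxLDL, with Lyz2 the largest contributor. Of the 10 genes, 4 were lower in all oxLDL samples than in any untreated sample, 1 was higher and 5 overlapped. Over all genes tested, 10.6% were lower in this way and 10.5% were higher. Emr1, which encodes F4/80, ran from 3090 to 9150 CPM untreated and from 451 to 2500 CPM with oxLDL, and the integrin gene Itgam from 1130 to 3170 and from 298 to 566 CPM. The Fc receptor gene Fcgr1 ran from 367 to 579 CPM untreated and from 15.3 to 41.8 CPM with oxLDL, and Aif1 from 34.1 to 211 and from 1.60 to 9.08 CPM. Cd68, a lysosomal glycoprotein, was the higher one, from 740 to 1200 CPM untreated and from 1330 to 1640 CPM with oxLDL. Markers of plasmacytoid dendritic cells summed to 345 to 546 CPM untreated and 76.7 to 229 CPM with oxLDL, nearly all of it Bst2, which is itself induced by interferon, while Siglech was at most 0.819 CPM. Neutrophil markers, 6 of 7 in the tables, ran from 7.03 to 30.5 CPM untreated and from 1.27 to 4.78 CPM with oxLDL, and B cell markers from 3.48 to 38.0 and from 1.74 to 9.55 CPM, nearly all of it Cd79b. Conventional dendritic cell markers (1.64 to 3.75 and 1.54 to 3.26 CPM), T and NK cell markers (at most 0.289 CPM), stromal markers (at most 0.217 CPM, with Pdgfra at 0) and erythroid and megakaryocyte markers (12.6 to 19.5 and 12.7 to 23.7 CPM, with Hbb-b1 at 0) were low in both groups. Bst2 and the neutrophil sum were lower in all oxLDL samples than in any untreated sample, and the macrophage and B cell sums overlapped between groups. The part of these markers, the single macrophage genes included, in the OAS result was not tested.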

How the data were processed

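Poly(A) RNA of 6 samples was sequenced as paired reads with a stranded kit, per the labels' protocols. Whether counting used the strand is not stated in the labels. The authors deposited expected counts from RSEM and a normalised signal, CPM of TMM-scaled libraries, per the file names. Bowtie2 2.1.0, RSEM 1.2.15 and edgeR are listed in the submitters' processing notes, with the human build hg19 although the tables carry mouse symbols, so positions are given only for RefSeq promoter windows.

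Expected counts, of which 10.4% to 11.1% per sample were not whole (tolerance 0.005), were rounded. Totals ran from 13546572 to 15559310 per sample. In the CPM file, 100% of values gave whole reads, and 99.94% of these equalled the rounded expected counts. A count test on them called 0 genes unmatched and 672 with the block, as the expected counts did. That outcome was nearly fixed in advance. Genes passed filterByExpr (minimum count 10, minimum total 15) and were tested in R 4.3.3 with edgeR 4.0.16 (TMM, quasi-likelihood, robust) over all genes, with group alone and with the sample number as a block. DESeq2 1.42.0 and limma 3.58.1 were alternatives. DESeq2 was run on all genes with any counts and applied its own filter in place of filterByExpr. Its gene counts are therefore not over the same set of genes. Levels are recomputed TMM-scaled CPM, within 1% of the deposited ones. The labels do not tie samples to separate cultures or mice. The p-values therefore reflect no more than the variation among these samples. Levels of Xist and Ddx3y differed between the numbers, and how much of the variation is technical was not tested.

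Same-numbered samples deviated together from their group means (r over genes of 0.664, 0.447 and 0.698, above the 0.1 required), so the numbers were taken to pair the samples. Unlike numbers also correlated in 2 cases. Untreated sample 2 with oxLDL sample 1 gave 0.625, and untreated sample 1 with oxLDL sample 2 gave 0.204. The value of 0.625 exceeded the 0.447 of pair 2, so this check alone does not settle how numbers 1 and 2 pair. In sex-linked genes the same-numbered samples were the closer ones. Ddx3y was 30.8 CPM untreated and 28.7 CPM with oxLDL in number 1, against 103 and 93.4 CPM in number 2. Xist was 957 and 966 CPM in number 1, against 505 and 346 CPM in number 2. The members, the lists and the choice to describe genes from the matched fit were made with earlier results of these data known. The planned main fit was the unmatched one. Of each list, the genes past the threshold in the matched fit were named and up to 4 more by mean CPM. Of the lists, 2 genes are included in the counts and medians but are not reported here by themselves.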

Additional observations from a re-analysis of the deposited data

How the results depend on the processing

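All 6 OAS genes had a negative fold change in every setting run. The number past the threshold depended on the model, and the cause was not tested. Without the replicate block 0 of the 6 genes and 0 genes in all passed in edgeR. With the replicate block these were 4 and 672. DESeq2 without the block called 6 of them and 823 genes, limma-voom 0 and 10, and edgeR with no filter on low counts 0 and 8. Leaving out 1 sample of the unmatched fit gave 0 to 3 of the 6 and 0 to 737 genes, with the highest counts without untreated sample 3 (31 genes, 1 of the 6, without oxLDL sample 3). With the block, DESeq2 called 1850 genes and all 6, and leaving out 1 pair gave 0 to 6 of the 6 and 0 to 3446 genes. RLE scaling, limma-voom and no filter kept both matched counts within 1.5 times. So did the recovered reads, an alternative chosen after seeing the data, but they nearly equal the expected counts and are no separate check. Matched log2 fold changes ranged over settings from -1.83 to -1.43 in Oas1a, -3.25 to -1.78 in Oas1g (the sum with Oas1a), -3.17 to -1.99 in Oas2, -3.03 to -2.17 in Oas3, -3.74 to -2.81 in Oasl1 and -3.77 to -2.29 in Oasl2. The members had at least 58 counts in every sample, and lower depths were not tried.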
